A study of Mus musculus with 4 samples.

Results

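The cells described here are the sorted epidermal cells with little or no *Krt10* mRNA, and the comparison is between those that carried the Involucrin lineage label (Tom+) and those that did not (Tom-). A well was taken as a cell if it held at least 2000 gene UMIs (unique molecular identifiers, each standing for 1 captured mRNA molecule), which 161 of 384 wells did. A cell was kept here if *Krt10* made up fewer than 3 of every 1000 of its gene UMIs, so that members were chosen by their measured *Krt10* level, which left 96 cells, 33 of them Tom+ and 63 Tom-. All cells came from dorsal interfollicular epidermis of female Ivl-CreERT2/R26-tdTomato mice aged 57 days, which had received tamoxifen at 10 µg per g intraperitoneally 2 days earlier. In these mice the Involucrin promoter drives a Cre recombinase that tamoxifen activates, and recombination switches on the red protein tdTomato for good. Tom+ and Tom- cells therefore share genotype and treatment and differ per the labels in the sorted colour, and they were gated as Sytox Blue-negative, CD49f+, LY6A+ and CD34-negative. There were 4 libraries, 2 of each colour, under 2 run tags in the sample labels that are called run 1 and run 2. Whether a run corresponds to 1 mouse is not given in the sources used here. The study counts fewer mice for its sorted cells than there are libraries, so the libraries cannot each come from a different mouse. The p-values take the libraries as independent and measure the spread between libraries, not between mice.

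Basal keratinocytes attach to the basement membrane, divide, and express the keratin pair *Krt5* and *Krt14*. On commitment to differentiation they switch to the suprabasal pair *Krt1* and *Krt10* and then make secreted and cornified products such as *Krtdap*, *Sbsn* and *Ivl*. A heritable label driven by the Involucrin promoter records past promoter activity, while *Krt10* mRNA records the present state. Tom+ cells that are low in *Krt10* are thus labelled cells in which this early mark of differentiation is weak or missing at the time of capture.

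The rule took 10 of 35 Tom+ cells in run 1 and 23 of 58 in run 2, against 18 of 20 Tom- cells in run 1 and 45 of 48 in run 2. These cells held 52374 and 101667 gene UMIs in the Tom+ libraries and 73852 and 171788 in the Tom- libraries, with medians per cell between 3224 and 4425.5. Mitochondrially encoded genes took 5.07% and 5.94% of UMIs in the Tom+ libraries and 6.39% and 7.003% in the Tom- libraries. No cell name occurred in more than 1 library. At this depth the reporter mRNA was not caught in every sorted cell. UMIs of tdTomato were found in 4 of 10 and 10 of 23 Tom+ cells, in 0 of 18 Tom- cells of run 1, which allows a share of up to 16.7%, and in 2 of 45 Tom- cells of run 2. Cre UMIs were seen in 3 and 4 Tom+ cells and in 2 and 10 Tom- cells. Where 4 values are listed below, the Tom+ libraries come first and the Tom- libraries last, each with run 1 before run 2.

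All 96 cells held at least 3 different keratinocyte markers. Melanocyte and endothelial markers were at 0 in every library. Of the 8 bulge and outer root sheath markers *Cd34*, *Lgr5* and *Lhx2* were at 0, while *Postn* (1, 38, 10 and 31 UMIs) and *Sox9* (0, 5, 9 and 6 UMIs) were seen. The 10 infundibulum markers, which mark the upper hair follicle, summed to 687, 1790, 1300 and 1362 CPM (counts scaled to 1000000 gene UMIs per library), so that Tom+ libraries lay at both ends. At least 3 different ones of these markers were held by 0, 4, 4 and 11 cells. The bulge and outer root sheath list summed to 19.1, 423, 271 and 233 CPM, again with Tom+ libraries at both ends, and 2 Tom- cells held at least 3 of its markers. At least 3 T-cell markers were found in 1 Tom- cell, and at least 3 Langerhans cell markers in 1 Tom+ and 1 Tom- cell.

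*Krt10* itself chose the cells, so its level is given as a description. It stood at 40, 143, 59 and 47 UMIs, or 764, 1407, 799 and 274 CPM. The median cell held 0.26, 1.39, 0.47 and 0 *Krt10* UMIs per 1000, so Tom+ run 2 was the highest library and Tom- run 2 the lowest, with the 2 groups overlapping. No *Krt10* UMI at all was found in 3, 1, 6 and 33 cells. Just inside the limit lay cells at 2.64 to 2.94 UMIs per 1000, and just outside it cells at 3.04 to 3.28. Because *Krt10* still varied below the limit, the results on *Krt1*, *Krtdap* and the shares of cells are also given by whether cells held *Krt10* UMIs.

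**Figure D1:**
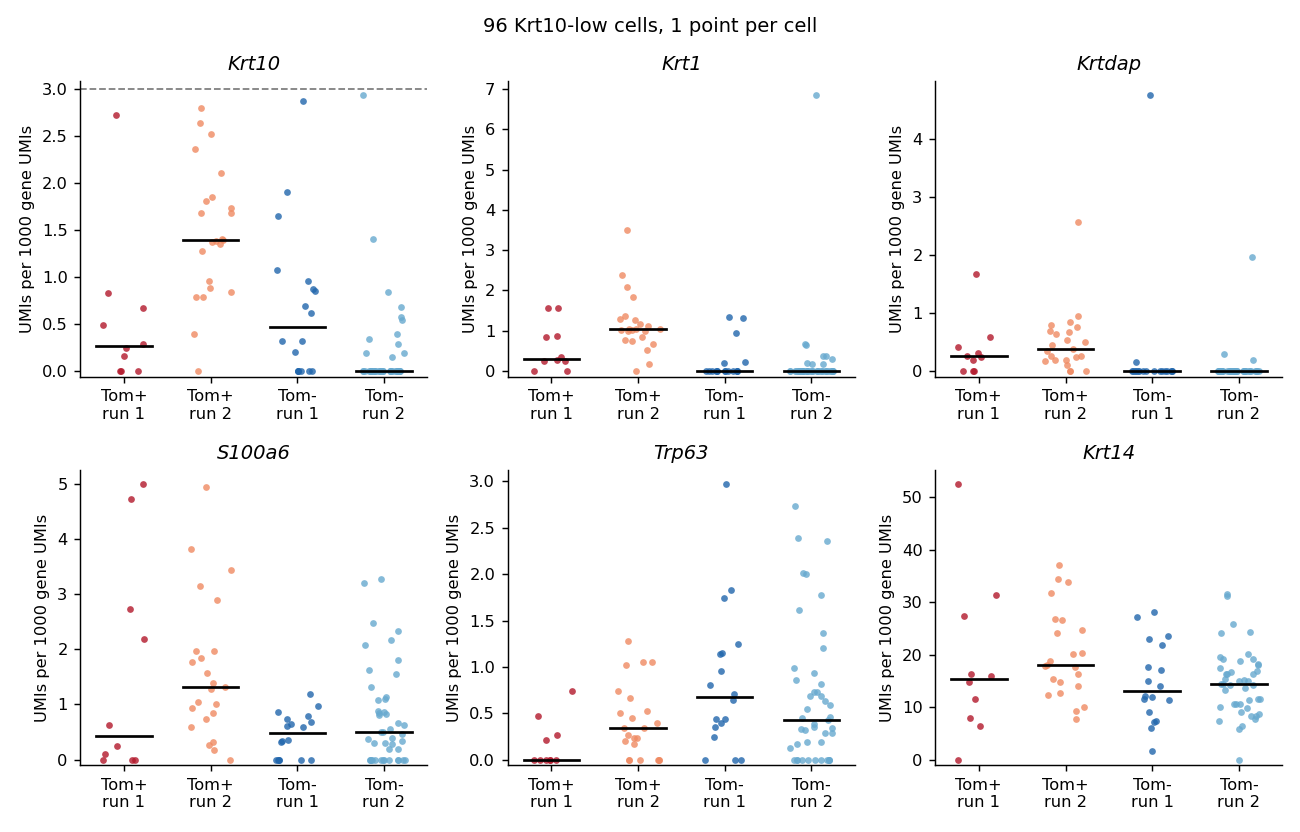
Level of 6 genes in each of the 96 *Krt10*-low cells, in UMIs per 1000 gene UMIs (vertical axes), with 1 point per cell, a bar at the library's median and the limit of 3 *Krt10* UMIs per 1000 dashed. The median of *Krt1* was 0.30 and 1.04 in the Tom+ libraries and 0 in both Tom- libraries, while single Tom- cells reached 6.86 for *Krt1* and 4.76 for *Krtdap*.

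Counts were summed over the cells of each library and tested across 1517 genes with edgeR's quasi-likelihood test and Benjamini-Hochberg adjustment. At an adjusted p of 0.05, 2 genes were higher in Tom+ cells (0.132% of those tested) and 0 were lower. The 2 genes were *Krt1* and *S100a6*. At an unadjusted p under 0.05 there were 31 higher genes (2.04%) and 41 lower genes (2.7%). DESeq2's Wald test called 0 genes, with 20 at an unadjusted p under 0.05. With the run tag as a block in the edgeR fit, 3 higher genes, *Krt10* among them, and 5 lower genes passed. With all 161 cells in the sums, *Krt10*-high cells included, 26 higher and 12 lower genes passed, of which 25 were among those tested in the *Krt10*-low cells.

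*Krt1*, the type II keratin that pairs with *Krt10* in suprabasal cells (GRCm38 chromosome 15, 101845426 to 101850786), was found at 33, 112, 21 and 35 UMIs, or 630, 1102, 284 and 204 CPM. The groups did not overlap, with Tom+ higher in both runs. The log2 fold change was 1.86 ± 0.38 (SE, n = 2 libraries per group), or 3.62-fold, with an adjusted p of 0.0079 by edgeR. Counted by cell at full depth, *Krt1* UMIs were present in 8 of 10 and 22 of 23 Tom+ cells but in 5 of 18 and 9 of 45 Tom- cells. With all cells thinned to an equal number of UMIs, these were 4 of 10 and 19 of 23 Tom+ cells and 3 of 18 and 6 of 45 Tom- cells. The exact two-sided permutation test on the thinned shares gave p = 0.333, the smallest it can give here. Single cells held much of the summed counts in both groups, with 12 of the 21 UMIs of Tom- run 1, 21 of the 35 of Tom- run 2 and 16 of the 33 of Tom+ run 1 in 1 cell each. The last was the deepest cell of its library, at 2.73 *Krt10* UMIs per 1000, and without it Tom+ run 1 stood at 404 CPM. For scale, Tom+ cells above the *Krt10* limit held 4375 and 2989 CPM of *Krt1*.

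The difference in *Krt1* was smaller among cells that shared some *Krt10*. In cells with at least 1 *Krt10* UMI (7, 22, 12 and 12 cells) *Krt1* stood at 671, 1137, 396 and 400 CPM, a log2 fold change of 1.17 that did not pass (adjusted p = 0.998, edgeR), and the median of *Krt10* there was still 0.49, 1.40, 0.86 and 0.47 UMIs per 1000. In cells with no *Krt10* UMI it stood at 495, 516, 42.8 and 84.3 CPM, which rests on 6, 3, 1 and 9 UMIs and was too low to be tested. With *Krt10* below 1 UMI per 1000 the log2 fold change was 2.95 (adjusted p = 0.00024, edgeR). That setting held 9, 7, 14 and 43 cells, of which 3, 1, 6 and 33 had no *Krt10* UMI. Residual *Krt10* was thus not matched between the groups there either. The part of residual *Krt10* in the *Krt1* difference was not tested beyond these values. The log2 fold change of *Krt1* fell to 1.32 without Tom+ run 2 and to 1.67 without Tom- run 2. Its direction was the same in all 20 alternatives that tested it, but in 8 of them it did not pass. Among the 8 were thinned cells (adjusted p = 0.140, edgeR) and the DESeq2 Wald test (adjusted p = 0.157). In 1 of the 20 alternatives *Krt1* helped choose the cells, so that value is no test.

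*S100a6*, which encodes the calcium-binding protein calcyclin (GRCm38 chromosome 3, 90612894 to 90614414), was found at 76, 187, 35 and 143 UMIs, or 1451, 1839, 474 and 832 CPM. On these summed levels the groups did not overlap, but cell by cell they did. The median cell held 0.43, 1.32, 0.47 and 0.49 *S100a6* UMIs per 1000, so Tom+ run 1 lay below both Tom- libraries, and 30 of its 76 UMIs came from 1 cell. The log2 fold change was 1.24 ± 0.29 (SE, n = 2 libraries per group), or 2.37-fold, with an adjusted p of 0.046 by edgeR. The gene was held by 7 of 10, 22 of 23, 12 of 18 and 32 of 45 cells, and the shares of the 2 groups overlapped. The highest cells stood at 5.01, 4.94, 1.19 and 3.28 UMIs per 1000. In the cells with at least 1 *Krt10* UMI *S100a6* stood at 894, 1742, 357 and 876 CPM, a log2 fold change of 1.05 that did not pass (adjusted p = 0.998, edgeR). In the cells without *Krt10* it stood at 3299, 3439, 727 and 806 CPM over 3, 1, 6 and 33 cells, which is given as values because the Tom+ cells are so few. In Tom+ cells above the *Krt10* limit *S100a6* stood at only 29 and 221 CPM, and with all 161 cells in the sums its log2 fold change was -0.01. The call sat close to the threshold and was lost without Tom+ run 1 (1.45, adjusted p = 0.0997), without Tom+ run 2 (1.00, adjusted p = 0.492) and without Tom- run 1 (0.91, adjusted p = 0.999). With the 21 cells that held at least 3 different markers of another cell type left out, *Krt1* (1.57, adjusted p = 0.385) and *S100a6* (1.13, adjusted p = 0.428) kept their direction and neither passed.

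*Krtdap*, a secreted product of early suprabasal cells (GRCm38 chromosome 7, 30787905 to 30791089), did not pass on the summed counts, but a larger share of Tom+ cells held it in both runs. It was found at 15, 48, 44 and 8 UMIs, and the libraries of the 2 groups overlapped, with a log2 fold change of 0.46 ± 0.50 (SE, adjusted p = 0.999, edgeR). In Tom- run 1, 43 of the 44 UMIs came from 1 cell, the deepest of that library at 9043 UMIs, whose *Krt10* level of 2.88 UMIs per 1000 lay just inside the limit. The same cell held 12 of the 21 *Krt1* UMIs, 16 of the 20 *Mt4* UMIs and 11 of the 19 *Sbsn* UMIs of its library. Counted by cell at full depth, *Krtdap* UMIs were present in 7 of 10 and 20 of 23 Tom+ cells and in 2 of 18 and 3 of 45 Tom- cells. With all cells thinned to an equal number of UMIs, these were 4 of 10 and 13 of 23 Tom+ cells and 2 of 18 and 1 of 45 Tom- cells. Without the 5% of cells with the most UMIs, which removed 1 cell per library, the log2 fold change of *Krtdap* was 3.35 (adjusted p = 4.3e-05, edgeR). It was 2.95 without Tom- run 1 (adjusted p = 0.0197), -0.0077 without Tom+ run 2 and -0.57 without Tom- run 2. In the cells with at least 1 *Krt10* UMI it was -0.23, and the cells with none held 2, 2, 0 and 1 *Krtdap* UMIs.

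The other early differentiation products had smaller counts, and none passed the test. *Sbsn*, which encodes suprabasin, was found at 15, 42, 19 and 24 UMIs, with a log2 fold change of 0.89 ± 0.45 (SE, unadjusted p = 0.052, adjusted p = 0.982, edgeR), and was present in 7, 15, 6 and 12 cells. *Mt4*, the metallothionein of stratified epithelia, was found at 10, 17, 20 and 8 UMIs with overlapping groups and a log2 fold change of 0.34 ± 0.59 (SE). *Ptgs1*, a cyclooxygenase, was found at 4, 9, 2 and 3 UMIs and was too low to be tested. The late products were close to absent: *Ivl*, whose promoter drives the label, had 0 UMIs in all 96 cells, and the cornified envelope gene *Lor* had 0, 0, 1 and 2 UMIs.

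To compare cells at equal depth, each was thinned to 2000 UMIs, and cells holding any UMI of *Krt1*, *Krtdap*, *Sbsn*, *Mt4* or *Ptgs1* were counted. These were 9 of 10 and 21 of 23 Tom+ cells (90% and 91.3%, exact 95% binomial intervals 55.5% to 99.7% and 72.0% to 98.9%) and 9 of 18 and 15 of 45 Tom- cells (50% and 33.3%, intervals 26.0% to 74.0% and 20.0% to 49.0%). The mean share was 49.0 percentage points higher in the Tom+ libraries, by 40 points in run 1 and 58.0 points in run 2. The exact two-sided permutation test gave p = 0.333, the smallest it can give for 2 libraries against 2. With at least 3 of the 5 genes required, the thinned shares were 10%, 30.4%, 11.1% and 0%, with overlapping groups and a difference of -1.11 points in run 1 and 30.4 points in run 2 (exact two-sided permutation p = 0.667). Without thinning, all 33 Tom+ cells held a UMI of these genes, against 11 of 18 and 20 of 45 Tom- cells. Among cells with at least 1 *Krt10* UMI, the thinned shares were 7 of 7, 21 of 22, 5 of 12 and 4 of 12. Among cells with no *Krt10* UMI they were 2 of 3, 0 of 1, 4 of 6 and 11 of 33, so the difference was seen in cells with *Krt10* UMIs and could not be read from the 4 Tom+ cells without them.

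**Figure D2:**
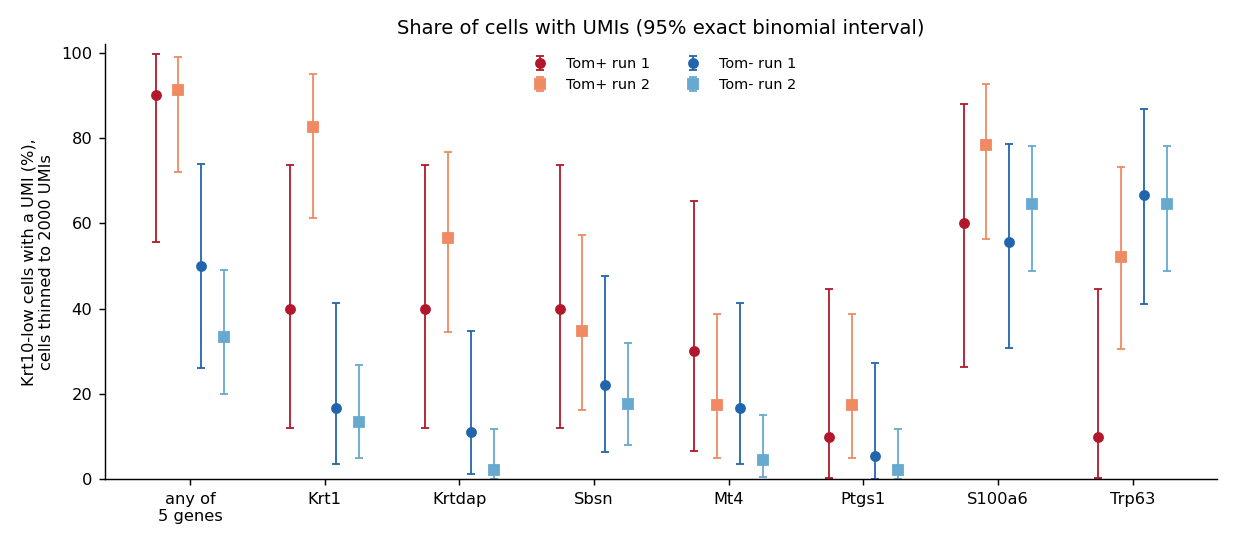
Share of *Krt10*-low cells with at least 1 UMI of a gene after thinning each cell to 2000 UMIs (vertical axis, %), for any of 5 differentiation genes and for single genes, with 1 point per library and bars for the exact 95% binomial interval, which covers counting error only. The Tom+ libraries lie at 90% and 91.3% for any of the 5 genes and the Tom- libraries at 50% and 33.3%.

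The 4 Tom+ cells without any *Krt10* UMI can be described one by one. They held 3200, 5133 and 3793 gene UMIs in run 1 and 5815 in run 2. The run 2 cell held 51 UMIs of cell cycle genes among 2000. Of the 4 cells, 2 held 2 tdTomato UMIs each. *Krt1* UMIs numbered 5, 0, 1 and 3, and each of the cells had 1 or 2 *Sbsn* UMIs. All held *Krt14*, with 51, 270, 104 and 95 UMIs, and *S100a6*, with 7, 14, 19 and 20 UMIs. They are too few for a comparison.

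The list of suprabasal keratins and secreted products held 15 genes besides *Krt10*, of which 7 were tested. *Krt1* was the 1 that passed. The 7 fold changes were all positive, with a median log2 fold change of 0.70 against 0.00 over all genes tested, and in 5 of the 7 the groups did not overlap with Tom+ higher, as they did in 16.9% of genes tested. The other 8 genes were too low to be tested. Summed over all 15 genes, the list stood at 4621, 5302, 3710 and 2486 CPM. *Krt77*, a suprabasal keratin, was found at 6, 14, 4 and 4 UMIs (log2 fold change 1.80 ± 1.00 SE). It reached the count limit for testing only in the Tom+ libraries (115, 138, 54.2 and 23.3 CPM). Its direction among the 7 and the 5 genes is therefore not independent evidence. *Dmkn*, which encodes the secreted protein dermokine, stood at 2196, 2174, 1747 and 1624 CPM (0.33 ± 0.25 SE).

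No gene of the basal keratins and adhesion list passed the test. The basal keratin *Krt14* stood at 18692, 21088, 14543 and 15106 CPM with both Tom+ libraries higher, a log2 fold change of 0.38 with an approximate 95% interval from -0.04 to 0.80 (unadjusted p = 0.079, adjusted p = 0.997, edgeR). *Krt5* stood at 17795, 14724, 13148 and 14070, with an interval from -0.21 to 0.63, and *Krt15* at 11017, 8429, 9627 and 12329, with an interval from -0.66 to 0.20. Tom+ cells above the *Krt10* limit held 810 and 3230 CPM of *Krt14*, far below the *Krt10*-low cells of the same libraries. Of 15 genes of basal keratins and adhesion, 14 were tested, 0 passed by edgeR and 0 were at an unadjusted p under 0.05, with 5 positive and 9 negative fold changes and a median of -0.25. Among them the hemidesmosomal collagen *Col17a1* stood at 2979, 1770, 2722 and 2736 CPM (-0.27 ± 0.25 SE) and the integrin *Itga6*, whose product CD49f was part of the gate, at 496, 639, 528 and 763 (-0.24 ± 0.35 SE). *Ly6a*, the other positive gate, was at 15, 9, 23 and 32 UMIs (-0.54 ± 0.51 SE), and the metallothionein *Mt2* had a log2 fold change of -0.03 ± 0.23 (SE).

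*Trp63*, the transcription factor p63 that maintains the basal state (GRCm38 chromosome 16, 25683763 to 25892088), was found at 8, 41, 66 and 104 UMIs, or 153, 403, 894 and 605 CPM. Both Tom+ libraries were below both Tom- libraries. The log2 fold change was -1.34 ± 0.39 (SE), with an unadjusted p of 0.00092 and an adjusted p of 0.259 by edgeR, so it did not pass. It passed without Tom+ run 2 (-2.34, adjusted p = 0.038) and was -0.84 without Tom+ run 1 (adjusted p = 0.995), with the same direction in each case. Its UMIs were in 4, 17, 15 and 34 cells. Of the 22 epidermal transcription factors 12 were tested and 0 passed, with 1 higher and 1 lower at an unadjusted p under 0.05 and a median log2 fold change of 0.32. The higher one was the Notch target *Hes1*, at 12, 31, 13 and 16 UMIs (1.06 ± 0.51 SE, unadjusted p = 0.040, adjusted p = 0.982, edgeR). *Id1* had a log2 fold change of 0.80 ± 0.55, *Ovol1* of -0.28 ± 0.63 and *Csnk2b* of 0.29 ± 0.50 (SE). *Cebpb* (1, 3, 3 and 8 UMIs) and *Cdkn1b* (1, 2, 6 and 5 UMIs) were too low to be tested.

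**Figure D3:**
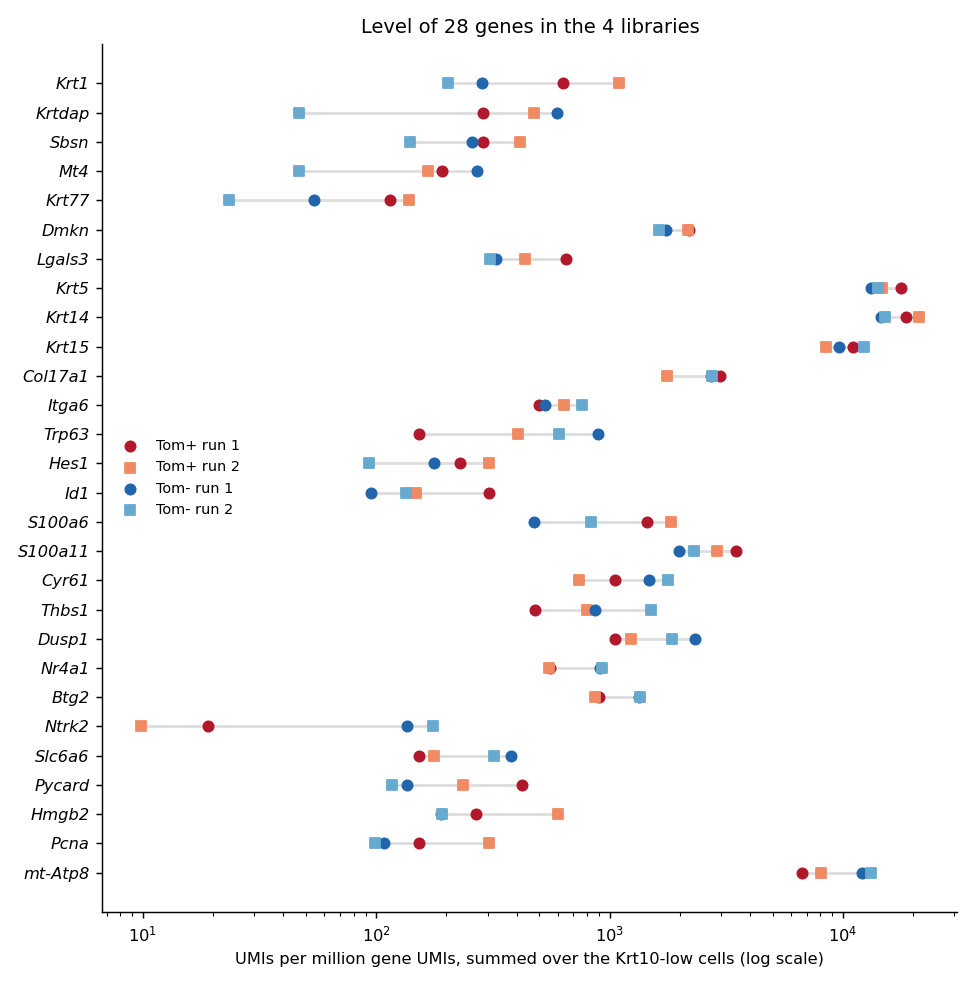
Level of 28 genes in each library, in CPM over the *Krt10*-low cells (horizontal axis, log scale), with circles for run 1, squares for run 2 and a grey line from the lowest to the highest library. *Krt1* and *S100a6*, which passed the test, have both Tom+ libraries to the right of both Tom- libraries, and *Trp63* and *Ntrk2*, which did not pass, have them to the left.

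Immediate early genes are switched on within minutes by growth signals, stress and cell isolation, and in Tom+ cells most had negative fold changes, though none passed the test. Of 18 genes in the AP-1 and immediate early list, all 18 were tested and 0 passed by edgeR, with 3 lower and 0 higher at an unadjusted p under 0.05. The fold changes were negative for 16 genes, with a median of -0.34 and a range from -0.88 to 0.07. In 7 of the 18 the groups did not overlap with Tom+ lower, as in 13.5% of genes tested. The list summed to 16993 and 16033 CPM in the Tom+ libraries and 20379 and 20653 in the Tom- libraries. The 3 genes were the phosphatase gene *Dusp1* (1050, 1239, 2315 and 1845 CPM, log2 fold change -0.88 ± 0.26 SE, adjusted p = 0.259 by edgeR), the nuclear receptor gene *Nr4a1* (-0.77 ± 0.33 SE) and the antiproliferative gene *Btg2* (-0.66 ± 0.29 SE). *Fos* itself stood at 3742, 3089, 3602 and 3516 CPM with a log2 fold change of -0.11 ± 0.23 (SE). Values for the cells with no *Krt10* UMI stood further apart. There *Fos* was found at 10, 3, 104 and 361 UMIs, or 825, 516, 4449 and 3383 CPM. The stress-induced factor *Atf3* was found at 2, 1, 60 and 381 UMIs. The Tom+ side of these values is 4 cells with 12126 and 5815 UMIs in all, of which 1 cell, the one rich in cell cycle UMIs, makes up run 2, so they describe those cells rather than a group.

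The matrix and YAP target list had 15 of 17 genes in the files and 5 tested. *Cyr61*, a secreted matricellular protein, stood at 1050, 738, 1476 and 1781 CPM (log2 fold change -0.95 ± 0.28 SE, adjusted p = 0.259 by edgeR), and *Thbs1*, thrombospondin 1, at 477, 797, 867 and 1502 (-0.93 ± 0.32 SE, adjusted p = 0.503). Tom+ cells above the limit held 162 and 309 CPM of *Cyr61*. With all 161 cells in the sums both genes passed, at -1.77 and -1.88. In the cells with at least 1 *Krt10* UMI the fold change of *Thbs1* was 0.43.

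The list of growth factor and interleukin-1 genes also held 4 genes taken from earlier results of these same cells, *Ntrk2*, *Ptprs*, *Slc6a6* and *Adam8*, so their direction here is not independent evidence. *Ntrk2*, which encodes the neurotrophin receptor TrkB, was found at 1, 1, 10 and 30 UMIs, with 2 Tom+ cells and 18 Tom- cells holding it. The ratio of summed levels was 0.080, with a counting interval from 0.0093 to 0.31, and the adjusted p was 0.259 by edgeR. The gene reached the count limit for testing only in the Tom- libraries. *Adam8*, a membrane metalloprotease, was found at 0, 1, 12 and 12 UMIs and was too low to be tested, with a ratio of 0.066 and a counting interval from 0.0016 to 0.41. The taurine transporter *Slc6a6* stood at 153, 177, 379 and 320 CPM (-1.08 ± 0.46 SE, adjusted p = 0.941). The inflammasome adaptor *Pycard* stood at 420, 236, 135 and 116 (1.29 ± 0.49 SE, adjusted p = 0.713) and was present in 7, 15, 4 and 14 cells. Of the 20 genes of the list 7 were tested and 0 passed, with 1 higher and 2 lower at an unadjusted p under 0.05. The median log2 fold change of the 7 was -0.89, with genes taken from earlier results among them.

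**Figure D4:**
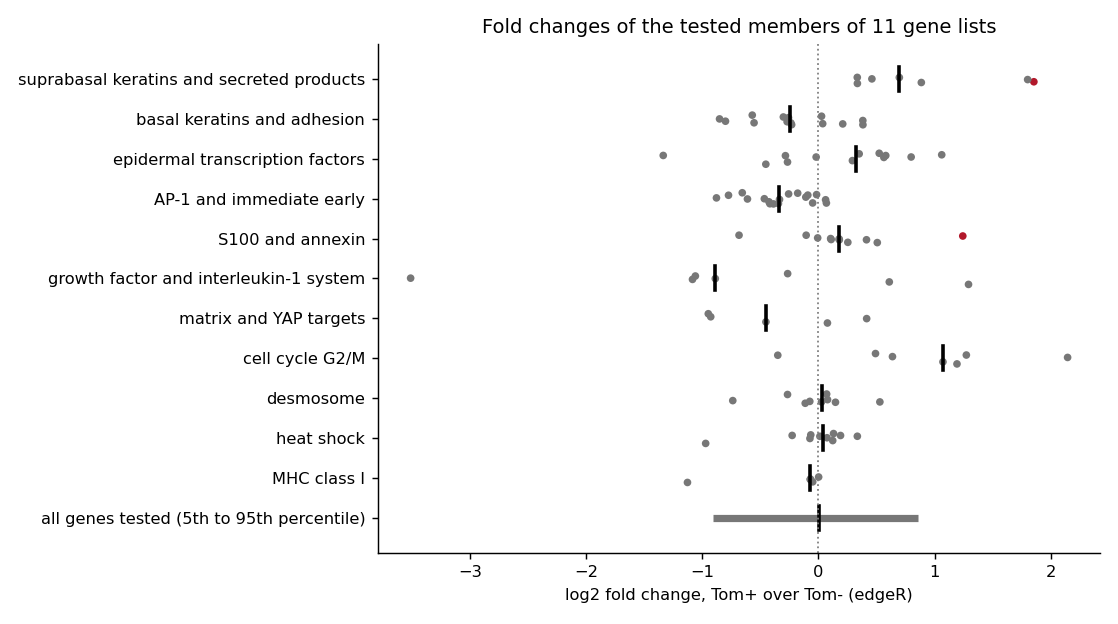
Log2 fold change of the tested members of 11 gene lists, Tom+ over Tom- (horizontal axis), with 1 point per gene, red for an adjusted p under 0.05, and a bar at the median of each list and of all 1517 genes tested. The suprabasal list has its median at 0.70 and the AP-1 and immediate early list at -0.34. The highest median is that of the cell cycle G2/M list, at 1.07, though the summed level of all its genes overlapped between the groups. The lowest is that of the growth factor and interleukin-1 list, at -0.89, which includes genes taken from earlier results of these cells.

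Of 22 S100 and annexin genes 11 were tested and *S100a6* was the 1 that passed. *S100a11* stood at 3475, 2882, 1977 and 2311 CPM (log2 fold change 0.51 ± 0.24 SE, unadjusted p = 0.037, adjusted p = 0.982, edgeR). The median of the list was 0.18. Of 12 heat shock genes 10 were tested and 0 passed, and the small heat shock protein gene *Hspb1* was the 1 below an unadjusted p of 0.05, at 458, 325, 501 and 908 CPM (-0.97 ± 0.37 SE). Desmosome genes (9 of 14 tested), MHC class I genes (5 of 8), metallothioneins (3 of 4), Ly6 and Skint genes (5 of 21), prostaglandin enzymes (2 of 19) and genes of cholesterol and ceramide synthesis (3 of 27) had 0 genes past the threshold and 0 at an unadjusted p under 0.05 by edgeR.

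Proliferation was read from 97 genes of S and G2/M phase, of which 1 and 7 were tested and 0 passed. At least 3 UMIs of these genes among 2000 were held by 100%, 95.7%, 83.3% and 95.6% of cells (exact two-sided permutation p = 0.333, the smallest possible), so that this limit separated few cells. With a limit of 20 UMIs, chosen after the values were seen, 0 of 10, 3 of 23, 1 of 18 and 1 of 45 cells passed, where 0 of 10 allows a share of up to 30%. The 3 Tom+ cells held 44 to 70 such UMIs and the 2 Tom- cells 31 and 54, and *Top2a* and *Cdk1*, both needed for mitosis, were found in all 5. The 3 Tom+ cells also held 9, 3 and 5 *Krt1* UMIs. Summed over all its genes, the G2/M list stood at 3341, 6118, 3615 and 2858 CPM. The S phase list stood at 955, 2075, 1246 and 995 CPM. In both lists the groups overlapped, with Tom+ run 1 below Tom- run 1 and Tom+ run 2 the highest library. Over the 7 tested G2/M genes the median log2 fold change was 1.07, with 6 positive. In 4 of the 7 the groups did not overlap with Tom+ higher, as in 16.9% of genes tested. Of these 4, *Hn1* and *Anln* reached the count limit for testing only in the Tom+ libraries. Of single genes, *Hmgb2* (14, 61, 14 and 33 UMIs, log2 fold change 1.19 ± 0.43 SE), *Pcna* (8, 31, 8 and 17, 1.17 ± 0.54 SE) and *Hn1* (9, 13, 1 and 7, 2.15 ± 0.95 SE) were higher at an unadjusted p under 0.05, with adjusted p of 0.686, 0.982 and 0.977 by edgeR. *Pcna* (153, 305, 108 and 99.0 CPM) and *Hn1* (172, 128, 13.5 and 40.7 CPM) reached the count limit for testing only in the Tom+ libraries. Their direction is therefore not independent evidence. In *Hmgb2*, 19 of the 61 UMIs of Tom+ run 2 came from 1 cell.

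Outside the lists, *mt-Atp8* and *Ifrd1* were picked after their values were seen. The mitochondrially encoded ATP synthase gene *mt-Atp8* had the smallest unadjusted p among the genes lower in Tom+ cells (0.00042), at 6664, 8085, 12024 and 13196 CPM (log2 fold change -0.81 ± 0.22 SE, adjusted p = 0.212 by edgeR), beside the lower mitochondrial share of the Tom+ libraries given above. It passed with limma-voom at an adjusted p of 0.0315. *Ifrd1*, a transcriptional regulator, was found at 5, 44, 57 and 115 UMIs (-1.33 ± 0.40 SE, adjusted p = 0.259 by edgeR), with 32 of the 57 UMIs of Tom- run 1 in 1 cell. It passed without Tom+ run 2 (-2.97, adjusted p = 0.0069) and was -0.71 without Tom+ run 1.

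**Figure D5:**
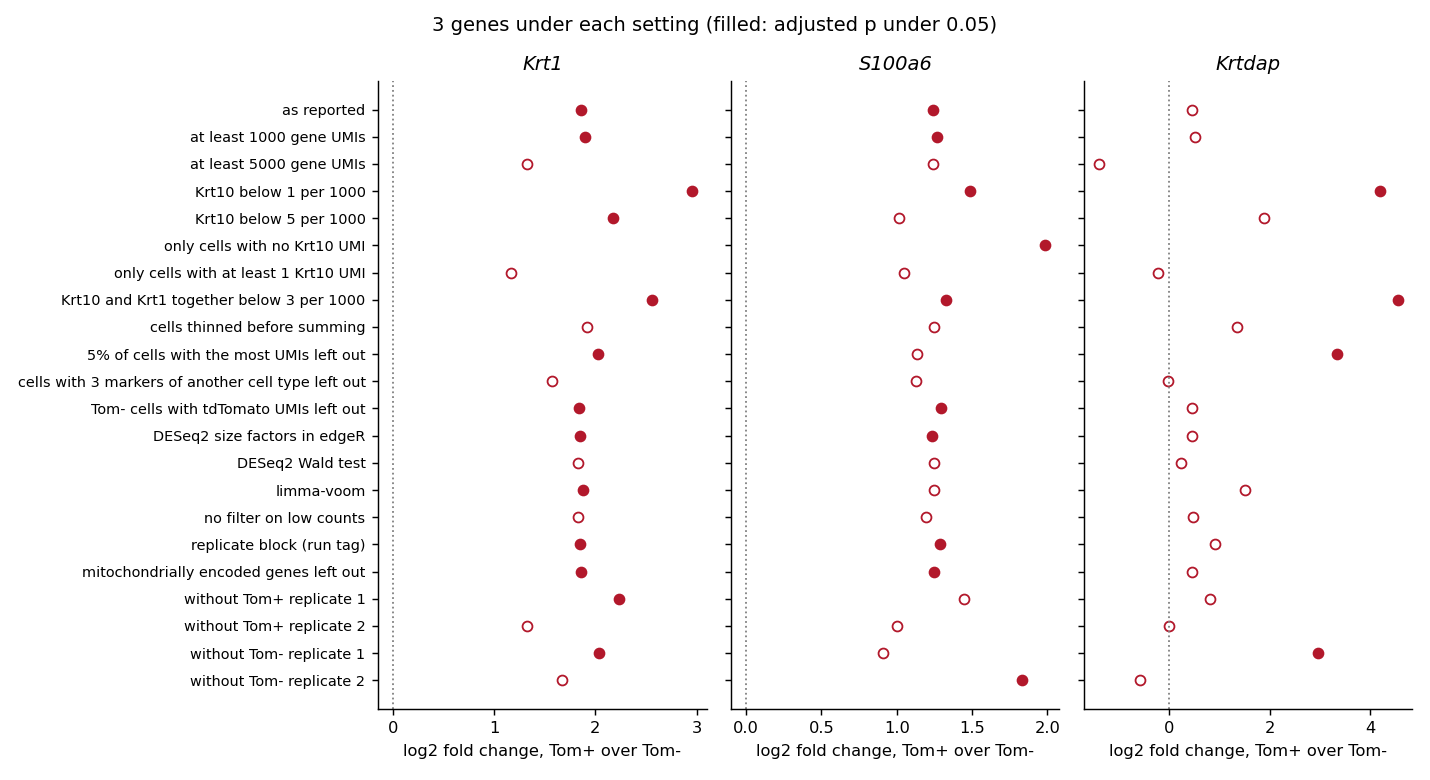
Log2 fold change of *Krt1*, *S100a6* and *Krtdap*, Tom+ over Tom- (horizontal axes), as reported and under each alternative setting (rows), filled where the adjusted p was under 0.05. *Krt1* ranged from 1.17 to 2.95 and *S100a6* from 0.91 to 1.98 over the alternatives, while *Krtdap* ranged from -1.39 to 4.54. The setting with no *Krt10* UMI holds 4 Tom+ cells. In the setting that limits *Krt10* and *Krt1* together, *Krt1* helped choose the cells.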

How the data were processed

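Per the labels and the study's methods, mRNA of single cells was tagged at its 5-prime end with STRT chemistry on Fluidigm C1 chips of 96 wells. The authors deposited 1 table of raw UMI counts per chip, and its rows for spike-ins and reporters were left out of gene totals here. The submitters' processing notes name mm10 and GRCm38, and the aligner is not given in the sources used here. Gene positions are those of RefSeq for GRCm38. The labels give a tamoxifen dose that differs from the one in the study's methods.

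The members, gene lists and tests were chosen with earlier results of these data known. Counts were summed per library over the *Krt10*-low cells and compared by the quasi-likelihood test of edgeR 4.0.16 in R 4.3.3 (TMM scaling, genes kept by filterByExpr, threshold 0.05), which was first tested on simulated data. The SE is the log2 fold change divided by the root of F, and the common biological coefficient of variation was 0.235. Shares were counted after thinning each cell to 2000 UMIs (seed 1) with Clopper-Pearson 95% intervals (counting error only), and libraries were compared by exact permutation, two-sided. Named were up to 15 passing genes per direction, genes the study follows, and in each list the passing members and up to 4 more at an unadjusted p under 0.05. Genes outside this rule are said to be so or are given as list members. The libraries of each group differed more than counting allows (chi-square over degrees of freedom 2.21 for Tom+, 2.32 for Tom-), so the tests use the spread between them. The intervals of the shares and of the *Ntrk2* and *Adam8* ratios do not include that spread.

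Alternatives were other UMI and *Krt10* limits, cells left out, each library left out, a run block, size factors and the Wald test of DESeq2 1.42.0, limma-voom (limma 3.58.1) and no filter on low counts. A group left with 1 library is assumed to vary like the other. Leaving out mitochondrially encoded genes, the share in cells without *Krt10* and the limit of 20 cell cycle UMIs were added after seeing the data.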

Additional observations from a re-analysis of the deposited data

How the results depend on the processing

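The count of changed genes (2 as reported) stayed at 2 with a minimum of 1000 UMIs, without the deepest 5% of cells, without Tom- cells that held tdTomato UMIs, with DESeq2 size factors, with limma-voom and without mitochondrially encoded genes, although the genes differed: *Krt1* and *Krtdap* without the deepest cells, and *Krt1* and *mt-Atp8* with limma-voom. It was 0 with a minimum of 5000 UMIs (35 genes at an unadjusted p under 0.05), in cells with at least 1 *Krt10* UMI (27), with thinned cells (42), without cells holding markers of other cell types (73), with the DESeq2 Wald test (20) and with no filter (298). It was 6 with *Krt10* below 1 per 1000 and 1 with *Krt10* below 5. With *Krt10* and *Krt1* together below 3 it was 4, among them *Krt1*, which there helped choose the cells. It was 21 of 252 tested in cells with no *Krt10* UMI, where the Tom+ libraries hold 3 and 1 cells. Leaving out 1 library gave 1 to 3 genes, and the genes and directions changed: *Krt1* without Tom+ run 1, 3 lower genes (*Ifrd1*, *Sostdc1*, *Trp63*) and 0 higher without Tom+ run 2, *Krt1* and *Krtdap* besides *Krt10*, which chose the cells, without Tom- run 1, and *S100a6* without Tom- run 2. The cause was not tested.

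What the run tags stand for is not given in the sources used here. Run differences of the Tom+ and Tom- libraries correlated at 0.03 across 1517 genes. Counting error in genes with few UMIs weakens such a correlation, so it cannot show whether the libraries are paired. The reported test took the libraries as unpaired, although they cannot each come from a different mouse. The fit with a run block is given beside it. With the run as a replicate block 8 genes were past the threshold. These were *Krt10*, which chose the cells and is no result, 2 higher genes (*Krt1*, *S100a6*) and 5 lower (*Cyr61*, *Dusp1*, *Ifrd1*, *Trp63*, *mt-Atp8*).

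The share of cells with any of the 5 differentiation genes differed by 49.0 points, by up to 66.1 points over 20 other seeds (mean 56.0), by 60.2 in cells with at least 1 *Krt10* UMI and by -16.7 in cells with none, which rests on 4 Tom+ cells, and by 40.7 to 57.3 points without 1 library. The cell cycle share differed by 8.38 points, by 0.60 to 13.4 over other seeds, by 17.5 at a limit of 5 UMIs and by 2.27 to 14.5 without 1 library, within the spread between libraries.

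Single genes changed sign in some settings. In cells with at least 1 *Krt10* UMI this held for *Krtdap* (-0.23), *Mt4* (-0.045), *Csnk2b* (-0.026), *Mt2* (0.26), *Thbs1* (0.43) and *Dmkn* (-0.087). With a minimum of 5000 UMIs it held for *Krtdap* (-1.39) and *Dmkn* (-0.025), without cells of other markers for *Krtdap* (-0.028) and *Csnk2b* (-0.046), with *Krt10* below 5 or without the deepest cells for *Ovol1* (0.13 and 0.048), and without *Krt10* UMIs for *Krt5* (-0.084). Without 1 library, *Krtdap* ran from -0.57 to 2.95, *Mt4* from -0.58 to 1.82, *Itga6* from -0.50 to 0.15, *Ly6a* from -1.40 to 0.18, *Col17a1* from -0.61 to 0.041 and *Mt2* from -0.44 to 0.31, and the lone library is assumed to vary like the others. None of these genes passed as reported. With 52374 to 171788 UMIs per library, genes with few UMIs could not be tested, and a gene that did not pass was not shown to be equal.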
